A study of Mus musculus with 32 samples.

Results

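The genes described here carry proteins into the endoplasmic reticulum (ER) and between the ER and the Golgi. They were chosen by symbol: the signal recognition particle and its receptor, the Sec61 translocon and its partners, the signal peptidase, the COPII and COPI vesicle coats, the p24 cargo receptors, the KDEL receptors and the Sec22 SNAREs. The rule found 63 genes among the 12913 genes listed in the data, and all 63 were listed in both media. Genes that match the rule but were not listed by the submitters could not be included. RNA was sequenced from mouse embryonic fibroblasts in which the endogenous Acly gene, for ATP-citrate lyase (ACLY), was knocked out. ACLY makes acetyl-CoA from citrate outside mitochondria. All cells carried the knockout and 1 of 4 constructs in the same vector: mCherry alone (KO), mCherry-tagged human ACLY (WT), that fusion plus a nuclear export signal (Cyto), or that fusion plus added nuclear localization signals (Nuc). Cells were grown in DMEM with 10% CS and antibiotics, and then kept at either 10 mM or 1 mM glucose for 24 h. There were 4 libraries per construct and medium, except Cyto in 10 mM glucose with 3, because the submitters called 1 library an anomaly and left it out. The labels do not say whether libraries came from separate cultures or whether any line was made repeatedly. The p-values thus reflect only how much these libraries vary, which may be technical.

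Proteins bound for secretion, for the plasma membrane or for the organelles along the way first enter the ER. The signal recognition particle binds the signal sequence of a nascent chain and docks on its receptor, the Sec61 channel lets the chain through, and the signal peptidase cuts the signal off. COPII vesicles then leave the ER at exit sites, p24 proteins and Sec24 select cargo, and COPI vesicles return escaped ER proteins that KDEL receptors have caught in the Golgi. Fibroblasts depend on this route for collagen and other matrix proteins. Many of its genes are known targets of the ER stress factors Xbp1 and Atf6, which act through short promoter elements such as the UPRE (an Xbp1 and Atf6 element) and the ERSE (a CCAAT box and CCACG at a fixed distance).

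Promoter windows are shown because most of these members rose in 1 mM glucose, as described below, and because such elements can be looked for by their letters. RefSeq windows (build GRCm38.p6, from 250 bases before to 50 after a start) were at hand for 52 of the 63 members, 56 windows in all. The UPRE letters TGACGTGG, searched on both strands, stood in 6 of these 56 windows (10.7%) and in 0.676% of all 32851 windows. The 6 windows are printed up to 20 bases after the start, 5′ to 3′ along the gene, with the letters or their reverse complement CCACGTCA in capitals.
Sec24d (chr3:123267246-123267515, plus strand): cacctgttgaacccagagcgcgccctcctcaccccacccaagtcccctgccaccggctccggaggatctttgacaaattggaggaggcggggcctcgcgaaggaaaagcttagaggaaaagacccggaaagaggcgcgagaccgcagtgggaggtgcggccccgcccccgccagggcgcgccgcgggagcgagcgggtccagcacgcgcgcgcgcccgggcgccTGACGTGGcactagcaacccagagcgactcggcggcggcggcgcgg
Kdelr3 (chr15:79516158-79516427, plus strand): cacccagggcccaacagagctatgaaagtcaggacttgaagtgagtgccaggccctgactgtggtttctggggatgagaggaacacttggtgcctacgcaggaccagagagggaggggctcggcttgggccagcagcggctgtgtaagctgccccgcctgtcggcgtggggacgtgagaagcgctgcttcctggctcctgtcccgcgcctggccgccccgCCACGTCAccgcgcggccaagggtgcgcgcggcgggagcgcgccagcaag
Sec16b (chr1:157506546-157506815, plus strand): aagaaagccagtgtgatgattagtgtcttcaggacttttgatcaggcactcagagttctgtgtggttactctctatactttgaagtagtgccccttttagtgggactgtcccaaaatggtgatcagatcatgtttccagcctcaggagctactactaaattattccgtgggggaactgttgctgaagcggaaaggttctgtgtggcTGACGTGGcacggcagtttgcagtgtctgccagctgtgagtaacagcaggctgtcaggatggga
Sec23a (chr12:59011998-59012267, minus strand): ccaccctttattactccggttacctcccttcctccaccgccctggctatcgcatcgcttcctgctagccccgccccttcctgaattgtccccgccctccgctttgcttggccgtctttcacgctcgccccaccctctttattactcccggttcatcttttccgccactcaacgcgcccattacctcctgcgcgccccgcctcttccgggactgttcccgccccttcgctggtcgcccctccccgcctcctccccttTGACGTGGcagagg
Copb1 (chr7:114254661-114254930, minus strand): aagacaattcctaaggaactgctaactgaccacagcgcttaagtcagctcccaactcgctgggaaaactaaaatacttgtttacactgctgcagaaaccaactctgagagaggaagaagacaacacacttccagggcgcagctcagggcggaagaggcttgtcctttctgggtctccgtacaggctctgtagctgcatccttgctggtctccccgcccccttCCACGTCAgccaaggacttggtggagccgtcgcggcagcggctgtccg
Copb2 (chr9:98563481-98563750, plus strand): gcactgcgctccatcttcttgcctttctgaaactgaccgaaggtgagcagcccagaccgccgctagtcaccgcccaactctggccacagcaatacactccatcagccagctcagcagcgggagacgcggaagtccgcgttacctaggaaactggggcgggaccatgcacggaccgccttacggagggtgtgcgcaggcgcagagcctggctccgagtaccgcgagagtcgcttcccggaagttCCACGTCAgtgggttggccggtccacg
They belong to a COPII cargo adaptor (Sec24d), a KDEL receptor (Kdelr3), an exit site scaffold (Sec16b), an inner COPII coat subunit (Sec23a) and both β subunits of the COPI coat (Copb1 and Copb2). The letters lay 44 bases before the start in Sec16b, 30 in Kdelr3, 28 in Copb1, 26 in Sec24d and 7 in Copb2, and began 6 bases after it in Sec23a. For comparison, the windows of 2 members without these letters are shown, the receptor subunit Srprb and the p24 protein Tmed5. They were picked for the largest rises in Cyto in 1 mM glucose among members with a window but without the letters.
Srprb (chr9:103202046-103202315, minus strand): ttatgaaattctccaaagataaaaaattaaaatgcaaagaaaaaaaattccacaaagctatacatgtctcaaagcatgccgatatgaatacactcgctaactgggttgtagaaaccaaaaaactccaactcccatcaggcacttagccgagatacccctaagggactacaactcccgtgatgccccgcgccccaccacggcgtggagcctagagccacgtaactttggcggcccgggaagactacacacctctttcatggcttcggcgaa
Tmed5 (chr5:108132601-108132870, minus strand): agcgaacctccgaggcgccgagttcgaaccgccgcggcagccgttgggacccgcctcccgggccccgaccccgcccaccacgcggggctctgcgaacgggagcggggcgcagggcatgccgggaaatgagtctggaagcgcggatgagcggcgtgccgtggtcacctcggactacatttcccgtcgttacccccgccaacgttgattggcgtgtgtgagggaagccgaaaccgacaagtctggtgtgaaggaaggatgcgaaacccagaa
The complete ERSE, CCAAT and CCACG 9 bases apart, was in 0 of the 56 windows and in 0.119% of all windows. Its relative ERSE-II, ATTGG and CCACG 1 base apart, was in 0 of 56 and in 0.0365% of all. The CCAAT box alone was in 24 of 56 (42.9%) against 37.4% of all. The E box CACGTG was in 7 of 56 (12.5%) against 7.15%, and the cyclic AMP element TGACGTCA in 1 of 56 (1.79%) against 1.79%. TGACGTGG shares its first 6 letters with TGACGTCA, and its other strand holds the CCACG of the ERSE. A match is a description of letters, not of binding, and the shares were not tested.

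The deposited values are log2 normalized levels, with 1 table per medium. The labels give each medium its own batch, so that glucose and batch cannot be told apart and levels are compared within a medium. No counts were given and the depth behind each value is unknown. In 1 mM glucose the level listed for Acly was 5.35 ± 0.10 in KO (SD, n = 4) against 10.57 ± 0.10 in WT. Cyto had 10.50 ± 0.07 and Nuc 8.97 ± 0.08. In 10 mM glucose it was 5.87 ± 0.21, 10.21 ± 0.06, 9.74 ± 0.13 (n = 3) and 9.12 ± 0.12 in the same order. Every KO library lay below every ACLY library, which checks KO against the ACLY lines. In 1 mM glucose the level did not tell WT from Cyto (-0.07 for Cyto against WT, limma adjusted p = 0.425). In 10 mM glucose it was lower in Cyto than in WT (-0.47, limma adjusted p = 0.00157). Nothing here checks the export or localization signals. Acly was lower in Nuc than in Cyto in both media, by 1.53 and 0.62 on the log2 scale, beside every Nuc to Cyto difference given here. For Nuc against WT it was at -1.60 in 1 mM and -1.09 in 10 mM glucose, beside every Nuc to WT difference. The part of the Acly level in the differences between the ACLY lines was not tested. Of 12 fibroblast markers 11 were listed, with levels up to 14.52. The lowest median among them was -0.13 in 10 mM and -0.14 in 1 mM glucose, so that not all were high. Of the other markers, 0 of 5 epithelial and 0 of 3 skeletal muscle ones were listed. The endothelial, blood and neural markers listed did not exceed 2.40. The share of mitochondrially encoded RNA in 1 mM glucose was 1.76% ± 0.14 for KO (SD, n = 4), 1.25% ± 0.05 for WT, 0.958% ± 0.079 for Cyto and 1.51% ± 0.17 for Nuc, and its part in the results was not tested. In 10 mM glucose it lay between 3.51% in WT and 4.74% in KO.

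WT replicate 2 in 1 mM glucose stood apart. It was the highest or the lowest of the 4 WT libraries for 58 of the 63 members, against 15 to 46 for the other libraries of that medium. Its deviation from the other WT libraries fell with transcript length (Spearman's rho across 11606 genes, -0.36, a description without a test). Srp14, a small subunit of the recognition particle, was at 6.98 there and in the other WT libraries at 6.29, 6.27 and 6.26, while the SNARE Sec22c was low, at 4.25 against 4.75 to 4.79. Counts of members called against WT, or in WT, in 1 mM glucose are therefore given with and without it, and the values of single genes in WT include it. In 10 mM glucose the 4 libraries numbered 4 each had a negative rho, from -0.08 to -0.29, and Nuc replicate 4 was at an extreme for 51 members.

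In 1 mM glucose, most members were higher in every line that carried ACLY than in KO cells. Against KO, 47 of 63 members rose and 7 fell in Cyto (limma, Benjamini-Hochberg adjusted p under 0.05 over all 12053 genes), where 31.7% of all genes rose and 33% fell, 64.7% in either direction. In Nuc 45 rose and 6 fell, against 30.5% and 29.5% of all genes (60% in either direction). In WT 37 rose and 10 fell, against 29.7% and 28.5% (58.2%), and without WT replicate 2 the counts were also 37 and 10, with 41 genes called both ways. Without KO replicate 4 the WT counts were 34 and 6. The members' median log2 fold change was 0.43 in Cyto, 0.45 in Nuc and 0.24 in WT (0.22 without WT replicate 2), and the median over all genes was -0.03, -0.01 and 0.00. These 3 comparisons share the KO libraries and are not independent of each other. The 63 genes together made up 0.721% ± 0.005 of the expression total in KO and 0.833% ± 0.046 in WT (SD, n = 4). Their share was 1.06% ± 0.02 in Cyto and 1.03% ± 0.04 in Nuc, a description without a test. By role, the rise covered the machinery of entry and the COPII side more than the COPI coat, whose median was 0.03 in WT (-0.04 without WT replicate 2), -0.05 in Cyto and 0.08 in Nuc. Whether the roles differed was not tested, and the counts by role below are to be read beside the shares of all genes given above.

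**Figure D1:**
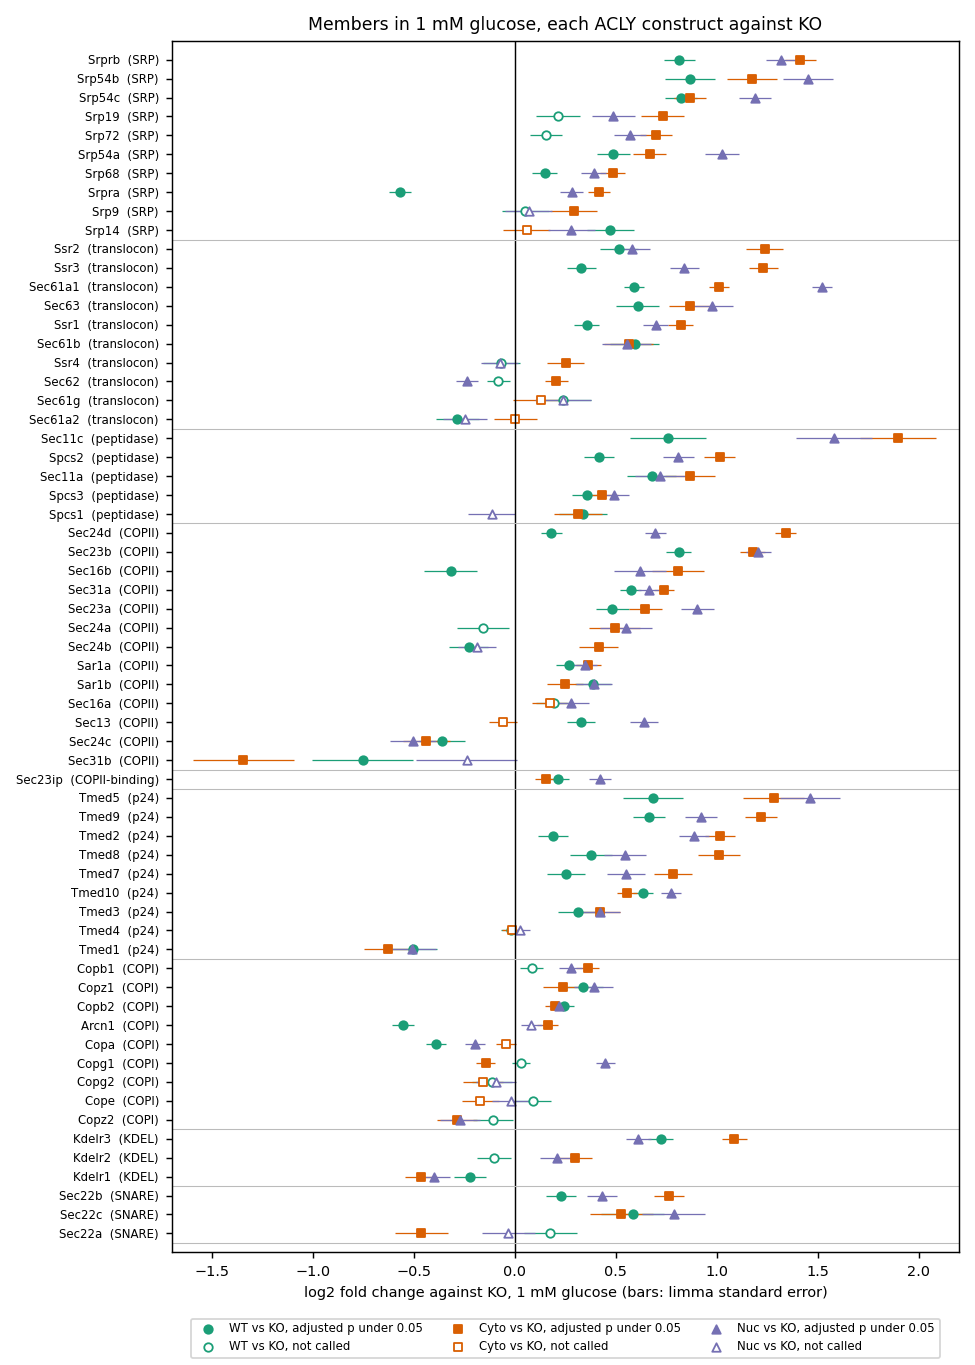
Log2 fold change of each of the 63 members against KO in 1 mM glucose, grouped by role, with bars for limma's standard error, filled symbols for an adjusted p under 0.05 and open symbols otherwise. Most symbols of the recognition particle, translocon, peptidase, COPII and p24 rows lie right of 0, while the COPI rows lie on both sides of it, between -0.56 and 0.45.

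The signal recognition particle and its receptor rose almost throughout in Cyto and Nuc. In each of them 9 of 10 members rose and 0 fell, with medians of 0.68 and 0.53, and in WT 6 rose and 1 fell, as also without WT replicate 2. Srprb, the membrane anchor of the receptor, rose 1.76-fold in WT, 2.66-fold in Cyto and 2.49-fold in Nuc (adjusted p = 1.2e-07, 8.5e-11 and 2.32e-10). Its partner Srpra, the receptor's GTPase that meets the particle, did not follow in WT: it fell by 0.57 ± 0.06 on the log2 scale (SE) and rose by 0.41 in Cyto and 0.28 in Nuc. The KO libraries had Srpra at 7.58, 7.57, 7.48 and 7.46, and WT at 7.08, 6.91, 6.96 and 6.87. Cyto was at 7.89, 7.99, 7.94 and 7.93 and Nuc at 7.88, 7.75, 7.81 and 7.77. None of the 3 ACLY groups overlapped with KO, with WT below it and the other two above. Srp19, which helps to assemble the particle on its RNA, rose by 0.73 in Cyto and 0.49 in Nuc. Srp54b, a copy of the subunit that binds the signal sequence, was at 5.22, 5.49, 5.89 and 5.37 in KO and at 6.57, 6.25, 6.43 and 6.18 in WT, without overlap. Its log2 fold change was 0.87 in WT, 1.17 in Cyto and 1.45 in Nuc. The longest open reading frames of Srp54a and Srp54b, 1515 bases, are identical and that of Srp54c differs at 6 bases, so the split of reads between these copies is uncertain. Their summed level was 7.37 ± 0.07 in KO (SD, n = 4), and no KO library reached the others. WT had 8.06 ± 0.06, Cyto 8.24 ± 0.09 and Nuc 8.56 ± 0.11.

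In the translocon, Sec61a1, which forms the channel, its small subunit Sec61b, Sec63 and the TRAP subunits Ssr1, Ssr2 and Ssr3 rose in all 3 ACLY lines, and the other 4 members did not. Of 10 members, 6 rose and 1 fell in WT (6 and 2 without WT replicate 2), 8 rose and 0 fell in Cyto, and 6 rose and 1 fell in Nuc. Sec61a1 stood at 8.24, 8.21, 8.16 and 8.16 in KO and at 8.80, 8.86, 8.79 and 8.68 in WT. In Cyto it was at 9.18, 9.27, 9.20 and 9.16 and in Nuc at 9.79, 9.70, 9.70 and 9.66. The 4 groups did not overlap, and the fold over KO was 2.01 in Cyto and 2.86 in Nuc (adjusted p = 3.49e-11 and 3.34e-13). Its paralogue Sec61a2 was 0.00 ± 0.11 in Cyto and -0.25 ± 0.11 in Nuc on the log2 scale (SE), neither of them called. In WT it was called at -0.29, and the call was lost without KO replicate 1 (-0.24), KO replicate 2 (-0.27), KO replicate 4 (-0.25) or WT replicate 2 (-0.20). Sec63, which recruits the chaperone BiP to the channel, was at 6.80, 6.96, 6.92 and 6.73 in KO and at 7.30, 7.84, 7.29 and 7.40 in WT. It rose by 0.61 in WT, 0.87 in Cyto and 0.97 in Nuc. Sec62, the subunit that works with Sec63, rose by 0.20 in Cyto and fell by 0.24 in Nuc. The Cyto call was lost under quantile normalization (0.09). The TRAP subunits Ssr2 and Ssr3, which assist insertion at the channel, rose 2.36-fold and 2.35-fold in Cyto.

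All 5 subunits of the signal peptidase rose in WT, with or without WT replicate 2, and in Cyto, and 4 of 5 in Nuc. The largest change of all 63 members was that of Sec11c, 1 of the 2 catalytic subunits. It was at 3.30, 2.95, 2.60 and 3.02 in KO and at 3.87, 4.35, 3.29 and 3.38 in WT. Cyto was at 4.72, 5.04, 4.95 and 4.75 and Nuc at 4.62, 4.47, 4.62 and 4.48. The Cyto and Nuc libraries all lay above those of KO and of WT, while WT reached down into the KO range. The rise over KO was 3.72-fold in Cyto (95% CI of the log2 value 1.50 to 2.29) and 2.99-fold in Nuc, and 1.69-fold in WT. Sec11a, the other catalytic subunit, rose by 0.68, 0.87 and 0.72 in WT, Cyto and Nuc. Spcs2, which binds near the channel, rose by 0.42, 1.01 and 0.81. Spcs1 was the subunit that did not rise in Nuc, at -0.12 ± 0.12 (SE).

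Of the 13 COPII coat and exit site genes, 7 rose and 4 fell in WT (8 and 1, Sec24c, without WT replicate 2), 9 rose and 2 fell in Cyto, and 10 rose and 1 fell in Nuc. The cargo adaptors of the Sec24 family diverged. Sec24d stood at 7.04, 6.87, 7.002 and 7.03 in KO and at 7.22, 7.21, 7.13 and 7.10 in WT. It was at 8.28, 8.30, 8.38 and 8.34 in Cyto and at 7.70, 7.71, 7.71 and 7.60 in Nuc, 4 groups without overlap. Its rise was 2.53-fold in Cyto (adjusted p = 2.34e-12), while Sec24c fell in Cyto and Nuc, by 0.44 and 0.50 on the log2 scale. Sec23b, an inner coat subunit, was at 5.47, 5.39, 5.24 and 5.45 in KO and at 6.17, 6.15, 6.29 and 6.19 in WT. It rose by 0.81, 1.18 and 1.20 in WT, Cyto and Nuc, and its paralogue Sec23a by 0.48, 0.64 and 0.90. The outer coat subunit Sec31a rose by 0.57, 0.74 and 0.66, and its paralogue Sec31b, at the low levels of 1.37 to 2.21 in KO, fell by 1.34 ± 0.25 (SE) in Cyto. Sec16b, the smaller exit site scaffold, rose by 0.81 in Cyto and 0.62 in Nuc. In WT it was called at -0.32, and the call was lost without KO replicate 1 (-0.30), KO replicate 2 (-0.26), WT replicate 1 (-0.32) or WT replicate 2 (-0.16). Sec23ip, which binds Sec23 and is the member that fits no role group, was at 5.92, 5.84, 5.86 and 5.79 in KO and at 6.09, 5.99, 6.11 and 6.08 in WT, without overlap. It rose by 0.21 in WT and 0.42 in Nuc.

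Among the 9 p24 cargo receptors, 7 rose and 1 fell in each of WT (6 and 1 without WT replicate 2), Cyto and Nuc, with medians of 0.31, 0.78 and 0.55. Tmed5 was at 5.99, 5.21, 5.65 and 5.37 in KO and at 6.23, 5.96, 6.46 and 6.30 in WT, which overlapped through KO replicate 1. In Cyto it was at 6.51, 6.96, 6.89 and 6.99 and in Nuc at 7.18, 6.96, 7.05 and 6.89, above all KO and WT libraries. The rise of Tmed5 was 1.61-fold in WT, 2.43-fold in Cyto and 2.75-fold in Nuc. Tmed9 rose by 0.66, 1.22 and 0.92 on the log2 scale in the same order. Tmed2, whose protein is needed for the stability of other p24 proteins, rose by 1.01 in Cyto and 0.89 in Nuc. Tmed1 was the member that fell, by 0.51, 0.63 and 0.51. Tmed4 was at -0.02, -0.01 and 0.02 and not called.

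**Figure D2:**
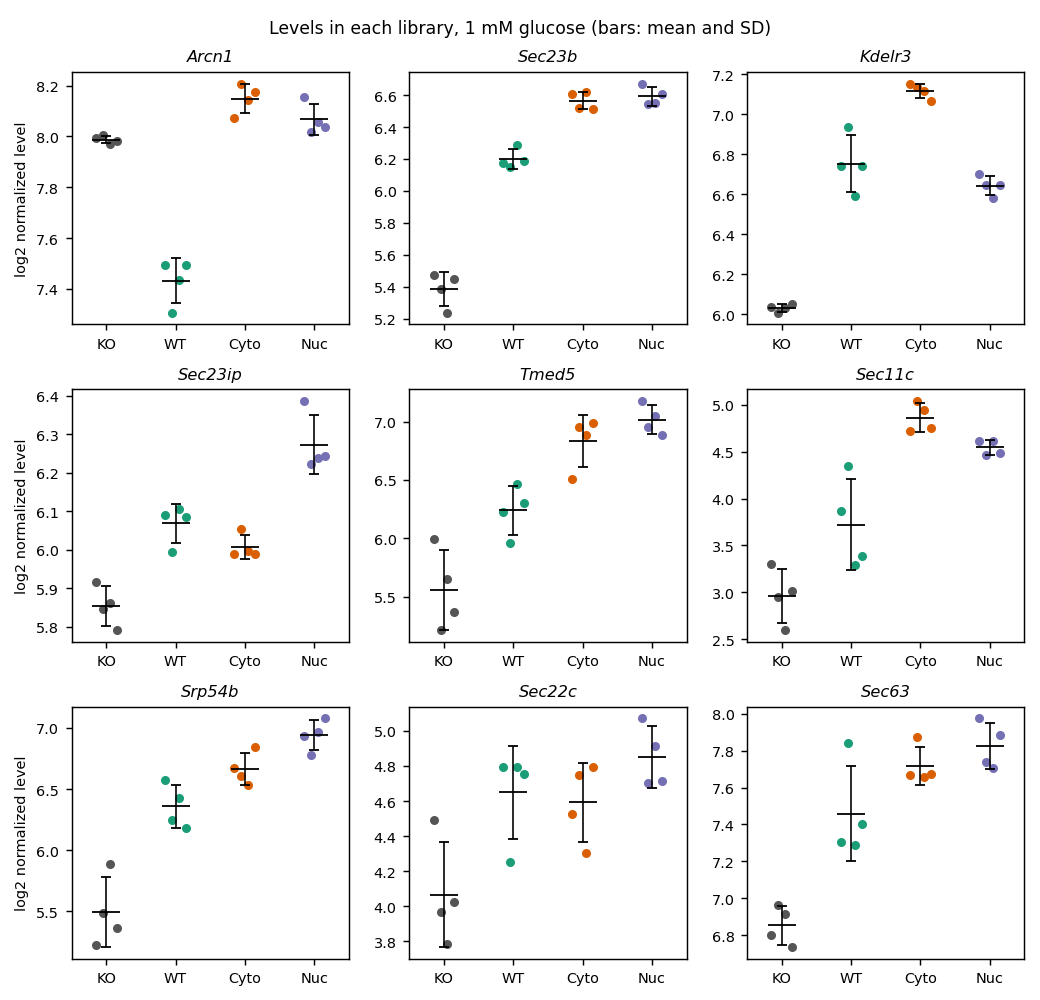
Log2 normalized level in each library in 1 mM glucose for the member of each role group that changed most in WT, with 1 panel per gene, 1 point per library and bars for mean and SD (n = 4). In the Sec11c and Tmed5 panels the Cyto and Nuc points lie above all KO and WT points, and in the Arcn1 panel the WT points, between 7.30 and 7.50, lie below all others.

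The COPI coat, 9 subunits that work as 1 heptamer with alternative γ and ζ subunits, did not move as a whole. In Cyto 4 rose and 2 fell, in Nuc 4 rose and 2 fell, and in WT 2 rose and 2 fell (2 and 3 without WT replicate 2). Of all genes, 64.7%, 60% and 58.2% were called in the same order, and these counts of 9 do not stand out from those shares. Arcn1, the δ subunit, was at 7.99, 8.004, 7.97 and 7.98 in KO and at 7.49, 7.30, 7.44 and 7.50 in WT. It fell by 0.56 ± 0.05 in WT (SE, adjusted p = 1.72e-07), rose by 0.16 in Cyto and was at 0.08 and not called in Nuc. The Cyto call was lost under quantile normalization (0.06). Copa, the α subunit, fell by 0.39 in WT and 0.20 in Nuc. Copb1 rose by 0.36 in Cyto and 0.28 in Nuc. Copg1, a γ subunit, fell by 0.14 in Cyto and rose by 0.45 in Nuc, while its paralogue Copg2 was at -0.16 and -0.09 and not called. The KDEL receptors split as well. Kdelr3 was at 6.04, 6.01, 6.03 and 6.05 in KO and at 6.74, 6.94, 6.59 and 6.74 in WT, and rose by 0.72, 1.09 and 0.61 in WT, Cyto and Nuc, without overlap with KO. Kdelr1 fell by 0.46 in Cyto and 0.40 in Nuc. Of the SNAREs, Sec22b, which acts in fusion between ER and Golgi membranes, rose by 0.76 in Cyto and 0.43 in Nuc, and Sec22a fell by 0.46 in Cyto. Sec22c was at 4.49, 3.97, 3.79 and 4.02 in KO and at 4.79, 4.25, 4.79 and 4.75 in WT. It rose by 0.58 in WT, where WT replicate 2 lay inside the KO range.

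The 6 members with the UPRE letters all rose in Cyto in 1 mM glucose, where 74.6% of all members rose, by 1.34 (Sec24d), 1.09 (Kdelr3), 0.81 (Sec16b), 0.64 (Sec23a), 0.36 (Copb1) and 0.20 (Copb2) on the log2 scale. The call of Copb2 was lost under quantile normalization (0.09). All 6 also rose in Nuc, where 71.4% of all members rose, by 0.69, 0.61, 0.62, 0.90, 0.28 and 0.22. In WT, where 58.7% of all members rose, 4 of the 6 rose. Copb1 was at 0.08 there and not called, and Sec16b was called at -0.32. The Sec16b call was lost without KO replicate 1 (-0.30), KO replicate 2 (-0.26), WT replicate 1 (-0.32) or WT replicate 2 (-0.16). Of the genes without the letters in their window, Srprb rose by 1.41 and Tmed5 by 1.28 in Cyto. Srprb and Tmed5 were picked by these rises, so members with and without the letters cannot be compared through them. Copb1 and Copb2 lay below the median of all members in Cyto, 0.43. Most of a list of 15 ER stress factors and reporter genes also rose in 1 mM glucose. In WT 14 of 15 rose with a median of 1.53 (15 of 15 and 1.39 without WT replicate 2). In Cyto and Nuc 15 of 15 rose with medians of 2.18 and 2.39. Of all genes, 29.7% rose in WT, 31.7% in Cyto and 30.5% in Nuc. The largest changes in Nuc were those of Sdf2l1 (4.65) and Creld2 (4.45), both ER luminal proteins. Those values are on the log2 scale and exceed every change among the 63 members. The list was chosen with results of these data known and is not independent evidence of a direction.

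Genes that act beside the members in the same routes were counted in 1 mM glucose as well. Of all genes, 29.7% rose and 28.5% fell in WT, 31.7% and 33% in Cyto, and 30.5% and 29.5% in Nuc. In either direction these shares were 58.2%, 64.7% and 60%, and some of the lists below were called no more often. The 25 measured genes of other routes into the ER included, among others, the EMC insertase, the GET pathway and the PAT and GEL insertion complexes. Of the 25, 15 rose and 0 fell in WT, 11 rose and 4 fell in Cyto, and 16 rose and 0 fell in Nuc. The medians were 0.28, 0.14 and 0.28. Without WT replicate 2 the WT counts were 13 and 0 with a median of 0.16. Nomo1, Ccdc47 and Ncln, which work at the translocon in membrane protein insertion, were the highest in Cyto, at 1.05, 0.92 and 0.78. Of 30 genes of ER exit, cargo adaptors and tethers, 19 rose and 5 fell in WT, 18 and 4 in Cyto, and 19 and 5 in Nuc, with medians of 0.25, 0.37 and 0.36. Without WT replicate 2 the WT counts were 17 and 4 with a median of 0.21. Uso1, a tether for ER-derived vesicles, rose by 0.84 in WT, 1.63 in Cyto and 1.64 in Nuc. Preb, the exchange factor that loads Sar1, rose by 1.25 in Cyto and 1.13 in Nuc. Trappc1, a subunit of the TRAPP tether, fell by 0.45, 1.56 and 0.65. Of 18 COPI regulators and Golgi-to-ER fusion genes, 8 rose and 1 fell in WT, 11 and 5 in Cyto, and 10 and 2 in Nuc, with medians of 0.23, 0.25 and 0.20. Without WT replicate 2 the WT counts were 7 and 1 with a median of 0.12. Nbas, a subunit of the tether that receives COPI vesicles, rose by 1.14, 0.94 and 1.51, and Zw10 of the same tether fell by 0.49, 0.39 and 0.21.

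Between the ACLY lines in 1 mM glucose, Cyto and Nuc both lay above WT. Against WT, 33 members rose and 6 fell in Cyto, where 25.7% of all genes rose and 27.5% fell (53.2% in either direction). In Nuc 31 rose and 2 fell, against 19.7% and 19.4% (39.1%). Without WT replicate 2 the counts were 36 and 8 in Cyto and 38 and 2 in Nuc, and the medians moved from 0.26 to 0.31 and from 0.19 to 0.20. Sec24d was 2.24-fold higher in Cyto than in WT, Sec11c 2.20-fold and Sec16b 2.19-fold. Srpra and Arcn1, which had fallen in WT, were higher than in WT by 0.98 and 0.72 in Cyto and by 0.85 and 0.64 in Nuc. In Nuc, Sec16b was 0.94 and Sec61a1 0.93 above WT. Without WT replicate 2 these were 0.78 and 0.95, and Sec11c was the highest at 1.03 in place of 0.82.

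Nuc and Cyto differed from each other in 23 members in 1 mM glucose, 10 higher and 13 lower in Nuc, where 20.4% and 20.5% of all genes were called (41% in either direction). The count depended on the model, with 39 called under sample weights and 35 in a fit of the 2 groups alone. Higher in Nuc were Sec13, of the outer COPII coat, by 0.70, Copg1 by 0.59 and Sec61a1 by 0.51. Sec31b was also higher in Nuc, by 1.11 ± 0.25 (SE). Lower in Nuc were Ssr2 by 0.66, Sec24d by 0.65, Sec24b by 0.60, Kdelr3 by 0.47, Tmed8 by 0.47 and Sec62 by 0.44. Sec24b, another cargo adaptor, was at 6.64, 6.75, 6.50 and 6.54 in Cyto and at 6.08, 6.03, 6.02 and 5.89 in Nuc, and its KO libraries were at 6.08, 6.25, 6.17 and 6.27. Of the members 15.9% were higher and 20.6% lower, and the median was -0.02 against 0.01 for all genes.

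In 10 mM glucose the members' changes were smaller, and fewer of them were called than in 1 mM glucose. Against KO, 21 of 63 rose and 10 fell in WT (20.6% and 20.2% of all 12791 genes, 40.8% in either direction), 13 rose and 4 fell in Cyto (19.6% and 18.9%, 38.5%), and 23 rose and 8 fell in Nuc (22.7% and 22.7%, 45.3%). As shares of the members, 33.3% rose in WT, 20.6% in Cyto and 36.5% in Nuc, and 15.9%, 6.35% and 12.7% fell. In WT the counts were 18 and 5 without KO replicate 2 and 18 and 6 without WT replicate 4. The medians were 0.15, 0.08 and 0.14, and no called change reached 1 on the log2 scale. With sample weights 26 members were called in Cyto in place of 17. The members' share of the expression total was 0.743% ± 0.015 for KO, 0.764% ± 0.009 for WT, 0.779% ± 0.011 for Cyto (n = 3) and 0.809% ± 0.020 for Nuc. Spcs3, a signal peptidase subunit, went down in this medium: it was at 7.36, 7.25, 7.35 and 7.20 in KO and at 6.89, 6.87, 6.75 and 6.84 in WT. Cyto had 6.28, 6.49 and 6.51, and Nuc 6.53, 6.40, 6.32 and 6.49. It fell by 0.45, 0.86 and 0.85 on the log2 scale (adjusted p = 6.81e-05, 1.79e-07 and 4.73e-08), and no ACLY library reached the KO range. Srpra fell by 0.74, 0.43 and 0.29 and Arcn1 by 0.56, 0.43 and 0.23 in WT, Cyto and Nuc. Rises in all 3 lines were those of Sec31a (0.41, 0.62 and 0.59), Sec23a (0.59, 0.35 and 0.64), Kdelr3 (0.60, 0.54 and 0.36), Tmed10 (0.62, 0.42 and 0.63) and Srp54b (0.79, 0.61 and 0.75). The summed level of the 3 Srp54 copies was 7.43 ± 0.11 for KO, 7.96 ± 0.06 for WT, 7.85 ± 0.14 for Cyto and 8.02 ± 0.03 for Nuc. Sec22c rose by 0.90 ± 0.23 (SE) in Nuc. Tmed8, a p24 relative, rose by 0.97 in Cyto and 0.87 in Nuc. Of the ER stress list, 9 of 15 rose in WT, 7 in Cyto and 9 in Nuc, and 0 fell, with medians of 0.27, 0.21 and 0.27.

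Nuc and Cyto differed in 17 members in 10 mM glucose, 9 higher and 8 lower in Nuc (15.3% and 15.7% of all genes, 31% in either direction). Sec61a1 was at 8.12, 8.09 and 8.09 in Cyto and at 8.73, 8.78, 8.73 and 8.74 in Nuc. The KO libraries were at 8.06, 7.98, 8.01 and 8.08 and WT at 8.11, 8.17, 8.12 and 8.11, so that Nuc alone stood apart. The difference was 1.56-fold (adjusted p = 4.17e-08). Copg2, a γ subunit of COPI, was at 5.83, 5.70 and 5.88 in Cyto and at 6.46, 6.54, 6.44 and 6.77 in Nuc, 1.68-fold higher. WT was at 6.41, 6.51, 6.58 and 6.40 and KO at 5.94, 6.23, 5.80 and 5.82, so that WT went with Nuc. Sec13 was at 6.39, 6.50 and 6.57 in Cyto and at 7.03, 7.04, 7.15 and 7.30 in Nuc, higher by 0.65. The p24 protein Tmed3 was at 6.06, 5.97 and 6.26 in Cyto and at 6.47, 6.42, 6.55 and 6.93 in Nuc, higher by 0.49. Lower in Nuc was Spcs1, at 6.27, 6.33 and 6.25 in Cyto and 5.68, 5.65, 5.86 and 6.14 in Nuc, by 0.46. Srp9, which pairs with Srp14, was at 6.53, 6.61 and 6.75 in Cyto and at 6.01, 5.91, 6.04 and 6.37 in Nuc, lower by 0.55. The Cyto and Nuc libraries of these 6 members did not overlap. The 6 were picked for the largest called difference in their role group, a choice that favours members without overlap. Differences called in both media, in the same direction and under every alternative, were those of Sec61a1 (0.51 in 1 mM and 0.64 in 10 mM), Sec13 (0.70 and 0.65), Copg1 (0.59 and 0.57), Tmed10 (0.22 and 0.21), Spcs1 (-0.43 and -0.46) and Ssr4 (-0.33 and -0.43), chosen after their values were seen. Sec23a (0.26 and 0.29) and Copa (-0.15 and -0.37) were also called in both. The 1 mM call of Sec23a was lost without Cyto replicate 1 (0.21) or Nuc replicate 1 (0.23), and that of Copa without Cyto replicate 2 (-0.13), Nuc replicate 3 (-0.14) or Nuc replicate 4 (-0.14). Against WT, 7 members rose and 11 fell in Cyto (15.9% and 15.6% of all genes, 31.5% in either direction), and 12 rose and 6 fell in Nuc (15% and 13.8%, 28.8%). Without Nuc replicate 4, 10 rose and 12 fell in Nuc, so that the balance turned. Without Cyto replicate 2, 4 rose and 6 fell in Cyto against WT. Copg2 was lower in Cyto than in WT by 0.67, and Sec61a1 higher in Nuc than in WT by 0.62.

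**Figure D3:**
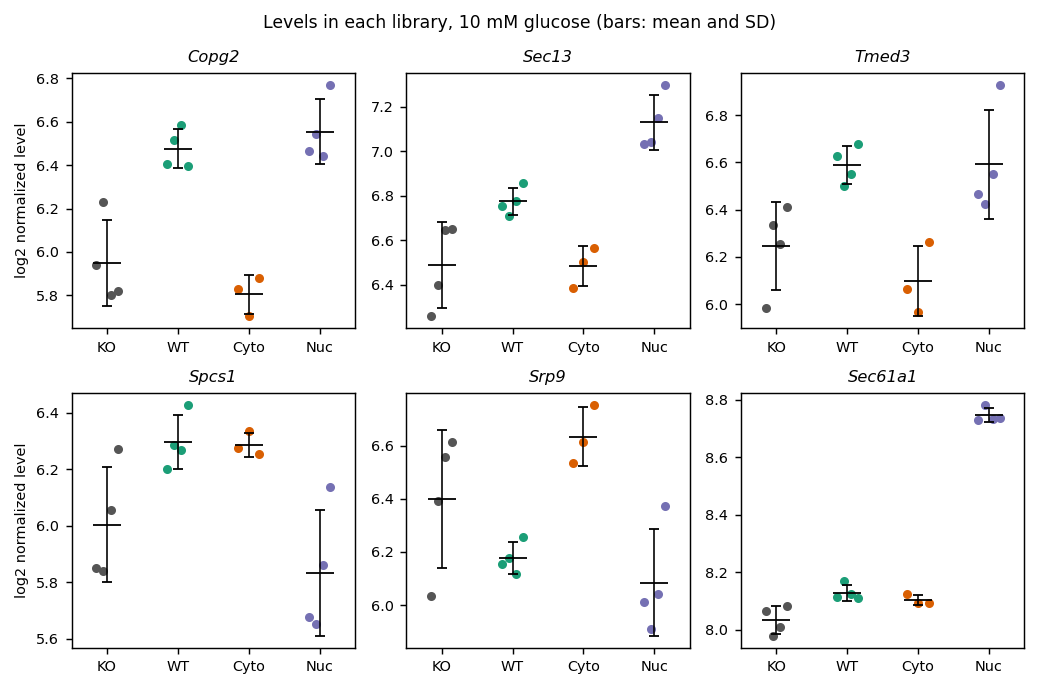
Log2 normalized level in each library in 10 mM glucose for the member of each role group with the largest called difference between Nuc and Cyto, 1 panel per gene, 1 point per library and bars for mean and SD (n = 4, Cyto n = 3). Sec61a1 in Nuc lies between 8.73 and 8.78, above the 3 other constructs, and Copg2 is high in WT and Nuc.

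Whether a fold change differed between media was tested on the 11931 genes listed in both, with the 10 mM log2 fold change subtracted from the 1 mM one. For Cyto against KO, 34 members had a higher value in 1 mM glucose and 3 a lower one, where 21.5% and 23.2% of all genes were called (44.7% in either direction). For Nuc against KO the counts were 28 and 4 (17.8% and 18.7%, 36.5%), and for WT against KO 12 and 3 (13.5% and 12.7%, 26.2%). The member medians of the difference were 0.33, 0.28 and 0.08, and those of all genes -0.03, -0.02 and -0.02. The media were labelled as separate batches, and a batch effect that differs between constructs cannot be told apart from one of glucose. Sec11c differed by 2.10 ± 0.27 (SE) in Cyto and 1.30 ± 0.26 in Nuc. Its levels in 10 mM glucose were 4.26, 3.92, 3.84 and 4.10 in KO, 3.52, 3.86 and 4.11 in Cyto and 4.06, 4.15, 4.26 and 4.74 in Nuc, overlapping throughout. Spcs3, which fell in 10 mM glucose, rose in 1 mM glucose by 0.35 in WT, 0.43 in Cyto and 0.49 in Nuc, and the differences were 0.81, 1.29 and 1.34. In 1 mM glucose its KO libraries were at 6.95, 6.999, 6.95 and 7.07, and the 12 ACLY libraries lay between 7.23 and 7.68. Sec23b differed by 0.66 in WT, 1.11 in Cyto and 1.43 in Nuc. Its 10 mM levels were 5.79, 5.80, 5.72 and 5.73 in KO and 5.67, 5.30, 5.69 and 5.48 in Nuc, below the KO range and not called. Srprb differed by 1.21 in Cyto and 1.06 in Nuc, and Sec24d by 1.15 and 0.63. Tmed5 differed by 0.75, 1.11 and 1.12 and Sec63 by 0.73, 0.93 and 0.94 in WT, Cyto and Nuc. Lower in 1 mM glucose were Kdelr1, with differences of -0.44, -0.59 and -0.48, and Copg2 in WT (-0.64) and Nuc (-0.70). Of the ER stress list, 11 of 15 were called higher in 1 mM glucose for WT, 13 for Cyto (with 1 lower) and 12 for Nuc.

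**Figure D4:**
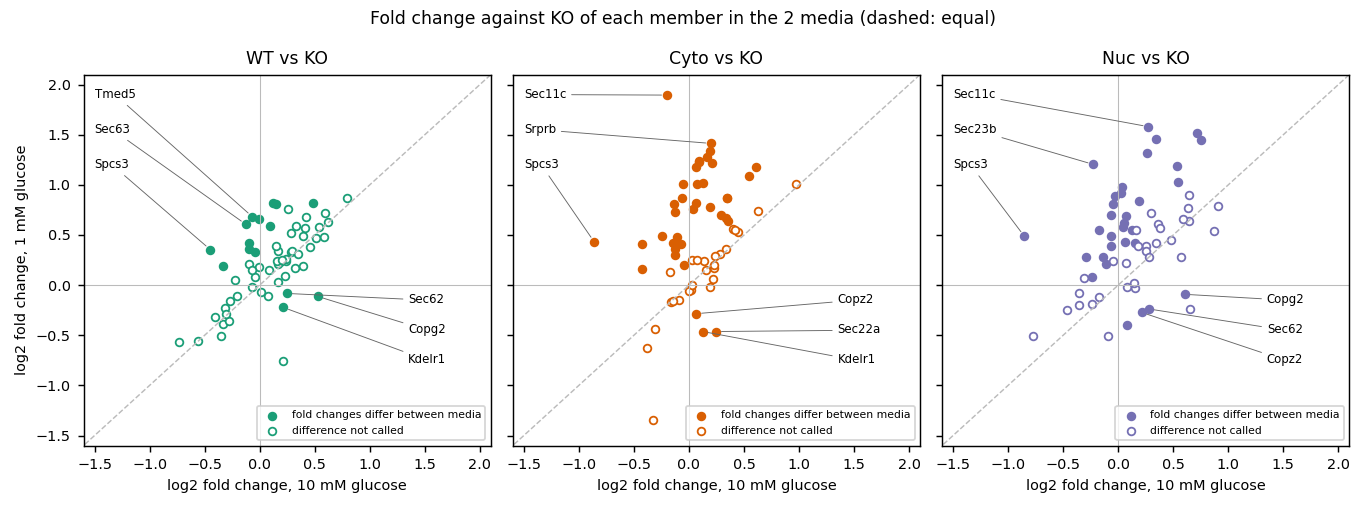
Log2 fold change against KO of each of the 63 members in 10 mM glucose (horizontal) and 1 mM glucose (vertical), 1 panel per ACLY construct, filled where the change differed between media by limma and with a dashed line at equal values. In the Cyto and Nuc panels most filled points lie above the line, among them Sec11c, and Kdelr1, Copg2 or Copz2 lie below it.

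The difference between Nuc and Cyto changed with the medium for 14 members, 3 with a higher and 11 with a lower value in 1 mM glucose (9.47% and 9.48% of all genes, 19% in either direction). The count was 8 without Cyto replicate 2 in 10 mM glucose and 9 without Nuc replicate 4 in 10 mM glucose. Copg2, higher in Nuc in 10 mM glucose and at 0.07 in 1 mM glucose, had a difference of -0.69. Ssr2 had -0.61, Sec24d -0.52, Sec62 -0.49 and Ssr3 -0.49, all of them lower in Nuc than in Cyto in 1 mM glucose and not called in 10 mM glucose.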

How the data were processed

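RNA-seq of 31 libraries was analysed, 15 in 10 mM and 16 in 1 mM glucose. The authors deposited log2 normalized expression per gene in 1 table per medium. The submitters' processing notes name kallisto, edgeR, limma and GRCm39, with no versions, and every library has about the same linear total, so that depth is unknown and no count test was possible. 1 entry per table had no symbol and was left out. Means of the constructs were fitted to the deposited values with limma 3.58.1 (R 4.3.3, intensity trend in the prior variance), separately per medium, with Benjamini-Hochberg adjustment over all genes and calls at an adjusted p under 0.05. Differences between media came from 1 fit over the 11931 shared genes. The script was tested on simulated data. The members and gene lists were chosen with earlier results of these data known. All members could be named, and values per library are given for those with the largest called change in their role group in WT against KO in 1 mM, in Nuc against Cyto in 10 mM glucose or between media, and for a few others chosen after their values were seen. From each list up to 3 called genes per direction are named. Alternatives were equal library medians, quantile normalization, a filter at a mean log2 level of 0, a pseudocount of 1 before the logarithm, sample weights, no trend, the compared groups alone, a replicate block, each library left out, the 10 mM libraries numbered 4 left out and, chosen after seeing the data, a trend on transcript length removed.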

Additional observations from a re-analysis of the deposited data

Results flagged for a closer look

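Among 112 groups of 4 libraries of 16 genes, 10 held a library whose gap to the next made up most of the group's range, where chance gives about 5.6. In 1 mM glucose these were Sec23ip in Cyto replicate 2 (6.05) and Nuc replicate 1 (6.39), Sec22c in WT replicate 2 (4.25), Sec63 in Cyto replicate 2 (7.87), Copg2 in WT replicate 1 (6.67) and Nuc replicate 2 (6.62), Spcs1 in KO replicate 4 (6.1) and WT replicate 2 (6.79), and Srp9 in WT replicate 2 (6.9), all log2 levels. WT replicate 2 accounts for 3 of them. In 10 mM glucose it was Sec61a1 in Nuc replicate 2 (8.78). The rule weighs the gap against the range, so that a small gap counts in a tight group. The next library was at 8.74 for Sec61a1 there, and at 6 for Sec23ip in Cyto.

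Changes that differed between media by limma are given as 1 mM minus 10 mM log2 values, the 3 highest and the 3 lowest called. For WT against KO they were Spcs3 (0.8), Tmed5 (0.75), Sec63 (0.73), Copg2 (-0.64), Kdelr1 (-0.44) and Sec62 (-0.33). For Cyto against KO they were Sec11c (2.1), Spcs3 (1.29), Srprb (1.21), Sec22a (-0.71), Kdelr1 (-0.59) and Copz2 (-0.35). For Nuc against KO they were Sec23b (1.43), Spcs3 (1.34), Sec11c (1.3), Copg2 (-0.7), Sec62 (-0.52) and Copz2 (-0.49). For Nuc against Cyto they were Sec23b (0.32), Sec23ip (0.27), Copa (0.22), Sec11c (-0.79), Copg2 (-0.69) and Ssr2 (-0.61). The calls of Sec62 for WT, of Copz2 for Cyto and, between Nuc and Cyto, of Sec23b, Sec23ip, Copa and Sec11c were each lost under at least 1 alternative.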

How the results depend on the processing

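Of 477 called member values, 367 kept direction and call under every alternative run, 110 lost the call under at least 1, and 0 reversed. Sample weights gave 26 called members in place of 17 for Cyto against KO in 10 mM glucose and 39 in place of 23 for Nuc against Cyto in 1 mM glucose, where a fit of these groups alone gave 35. With 1 library left out, 10 to 16 in place of 18 members were called between Cyto and WT in 10 mM glucose, lowest without Cyto replicate 2. For the difference between media of Nuc against Cyto the range was 8 to 13 in place of 14, with 8 without Cyto replicate 2 and 9 without Nuc replicate 4 in 10 mM glucose. For Cyto against KO in 10 mM glucose 64.7% of calls were rises under quantile normalization, against 76.5%, and for Nuc against WT 55.6% with the length trend removed, against 66.7%. Nuc against WT in 10 mM glucose gave 10 higher and 12 lower without the libraries numbered 4 and also without Nuc replicate 4 alone. Replicate numbers were not treated as pairs, because the correlation of deviations was over 0.1 for 2 of 24 pairs in 1 mM (-0.18 to 0.136) and for 5 of 21 in 10 mM glucose (-0.026 to 0.359). In 10 mM glucose 12 of 21 were best with their own number, against 5 of 24, and pairs numbered 4 reached the highest value. A replicate block gave 45, 54 and 51 called members for WT, Cyto and Nuc against KO at 1 mM, while at 10 mM the counts were 37, 20 and 35. The causes were not tested. Depth is unknown, and no interval for counting error can be given.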
